A study of Mus musculus with 8 samples.

Results

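Solute carriers are membrane proteins that move nutrients, ions, metals and metabolites across the plasma membrane and the membranes of organelles. The genes described here are the 172 genes whose symbols begin with Slc or Slco followed by a number and whose mean over the 8 libraries was at least 100 counts. The table held 394 such symbols among 50615 genes. Of the others, 63 had no count in any library, 73 had a sum below 10 and 86 entered the test with a mean below 100. Just inside the limit lay Slc22a21, Slc25a35 and Slc18b1 with means of 106.8, 105.3 and 101.2 counts, and just outside lay Slc9b2, Slc4a3 and Slc25a14 with means of 98.5, 96.9 and 93.9. The 172 genes belong to 44 families, which were grouped by what a family as a whole is known to carry, so a single gene can differ from its class. Slc5a6, for example, a transporter of biotin and pantothenate, is counted with the sugar transporters of its family. Symbols were matched by their letters, and 3 of the 172 genes encode no transporter: Slc9a3r1, a scaffold protein, Slc4a1ap and Slc7a6os.

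The RNA came from bone marrow-derived macrophages (BMDMs), cells grown from mouse bone marrow for 6 days with the growth factor M-CSF at 20 ng/ml. The strain was C57BL/6. Ncoa6-KO BMDMs came from Ncoa6 fl/fl LysM CRE mice, in which Cre recombinase made from the lysozyme locus cuts out a loxP-flanked piece of Ncoa6 in cells of the myeloid lineage. Ncoa6-sufficient BMDMs came from Ncoa6 fl/fl mice, which carry the floxed alleles without Cre. Ncoa6 encodes nuclear receptor coactivator 6, and the age of the mice was not given in the sources used here. Cultures of either genotype had medium alone, or received lipopolysaccharide (LPS), a component of the outer membrane of bacteria, at 100 ng/ml for 4 h and then monosodium urate (MSU) crystals at 200 µg/ml for another 2 h. With 2 libraries in each, made from BMDMs of different mice, there were 4 groups. No group had LPS or MSU on its own, so their parts in a response cannot be told apart.

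Macrophages rely on solute carriers in several known ways. Slc11a1 (Nramp1) removes divalent metals from the phagosome, Slc40a1 (ferroportin) is the only known iron exporter, and Slc7a2 brings in arginine, the substrate of nitric oxide synthase. Slc2a1 carries glucose for glycolysis, Slc16a3 exports lactate, and Slc7a11 together with Slc3a2 exchanges glutamate for cystine, a precursor of glutathione. Slc15a3 and Slc15a4 sit in endolysosomal membranes and carry histidine and small peptides.

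Counts summed to between 25281955 and 33673552 per library. Ncoa6, the targeted gene, had normalized counts of 1515 and 1405 for Ncoa6-sufficient and 784 and 622 for Ncoa6-KO BMDMs in medium alone, and 1297 and 1173 for Ncoa6-sufficient and 563 and 526 for Ncoa6-KO BMDMs after LPS + MSU, so that every Ncoa6-KO library lay below every Ncoa6-sufficient library. A normalized count is a count scaled to a common effective library size of 29332189. All 8 macrophage markers were detected, and their summed level was 405660 to 557530 in Ncoa6-sufficient libraries and 265900 to 394210 in Ncoa6-KO libraries. Most of that gap lay in Lyz2, which carries the Cre insertion and fell in Ncoa6-KO BMDMs by 1.01 on the log2 scale with medium alone and by 0.95 with LPS + MSU. Summed levels over the libraries were 321 to 695 for 7 neutrophil markers, 3.92 to 21.8 for the erythroid markers, 4.20 to 50.3 for 4 B cell markers, 0 to 2.77 for 4 T and NK cell markers with Cd3g and Ncr1 at 0, 140.4 to 950.4 for 5 stromal markers, 3437 to 9206 for 4 endothelial markers and 12.04 to 177 for 4 dendritic cell markers. In bulk RNA, fewer cells of a type and less RNA per cell cannot be told apart. From medium alone to LPS + MSU in Ncoa6-sufficient libraries, the sums went from 321 to 345 up to 530.2 to 695 for neutrophil, from 385 to 426 up to 905 to 950.4 for stromal, from 3437 to 3936 up to 8045 to 9206 for endothelial and from 12.04 to 16.5 up to 142 to 177 for dendritic cell markers. These sums thus moved with the response in Ncoa6-sufficient BMDMs, while erythroid and B cell sums were lower after LPS + MSU. In Ncoa6-KO libraries the neutrophil, endothelial and dendritic cell sums were higher with LPS + MSU as well. Their stromal sums overlapped, at 140.4 to 457 with medium alone and 333 to 821 with LPS + MSU. The Ncoa6-KO libraries numbered 1 had the lower stromal sums. Col1a1, for example, was at 58.4 against 185 with medium alone and 69.3 against 323 with LPS + MSU. Not every gene of a list moved with its sum. In mean normalized counts of Ncoa6-sufficient BMDMs, endothelial Kdr went from 586 to 6446 and Cdh5 from 24.1 to 131. Vwf went from 3074 down to 2048 and Tek from 2.04 to 0.693. Of the dendritic cell markers, Xcr1 went from 8.32 to 154 and Zbtb46 from 5.15 to 1.39, while Flt3 and Cd209a stayed low. The part of these marker levels in the results below was not tested.

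The 172 genes took a like share of all counts in every library, between 1.44% and 1.58%. Levels were compared between genes only as mean normalized counts per kb of exon. With medium alone in Ncoa6-sufficient BMDMs the highest was Slc6a6, the taurine transporter, at 3896 per kb. It was followed by Slc25a5, the mitochondrial ADP/ATP carrier, at 3869.8 per kb and by Slc3a2, the heavy chain that amino acid exchangers need at the cell surface, at 3517 per kb. Slc48a1, which moves haem out of the lysosome, stood at 2541 per kb and Slc11a1 at 2280.0 per kb. The next were Slc7a8, a light chain that pairs with Slc3a2, at 2233, Slc9a3r1 at 2065, Slc37a2, a sugar phosphate carrier, at 1745, Slc27a1, a fatty acid transport protein, at 1707 and Slc39a1, a zinc importer, at 1700.2 per kb.

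The order differed with LPS + MSU. Slc15a3 then led at 13360.0 per kb, from 1401 with medium alone. Slc28a2, a concentrative nucleoside transporter, came next at 11925 per kb, from 422. Slc2a6, a sugar transporter of endolysosomes, reached 10393 per kb, from 371, and Slc31a2, a copper transporter of intracellular membranes, 6189 per kb, from 769. None of these 4 genes was among the 10 highest with medium alone. Slc6a6, Slc25a5 and Slc11a1 kept levels of 4912, 4061 and 2334 per kb with LPS + MSU, and none of the 3 passed the test for a response.

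**Figure D1:**
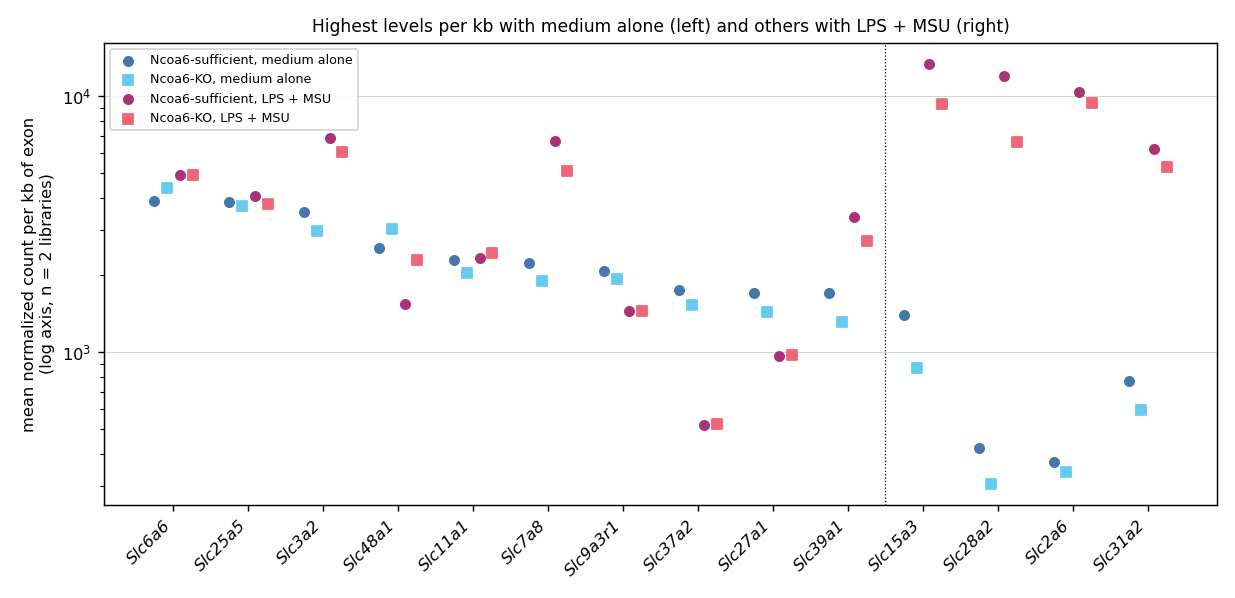
Mean normalized count per kb of exon, on a log axis, of the 10 solute carrier genes with the highest level in Ncoa6-sufficient BMDMs with medium alone (left of the dotted line) and of the 4 others that were among the 10 highest with LPS + MSU (right). Each point is the mean of 2 libraries of 1 group, and Slc15a3, Slc28a2 and Slc2a6 go from below the level of Slc39a1 with medium alone to the top with LPS + MSU.

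The first comparison asked how the genes responded to LPS + MSU within each genotype. In Ncoa6-sufficient BMDMs, 51 of 172 genes (29.7%) rose and 79 (45.9%) fell at an adjusted p under 0.05 in edgeR's quasi-likelihood test, with p-values adjusted by the Benjamini-Hochberg method over all 17625 genes tested. The background was large: 24.7% of all genes tested rose and 30.5% fell, and among the 10293 genes with a mean of at least 100 counts 30.8% rose and 40.1% fell. In Ncoa6-KO BMDMs 50 genes (29.1%) rose and 71 (41.3%) fell, beside 25.2% and 27.9% of all genes tested and 31.8% and 36.9% of genes with a mean of at least 100 counts. The shares of the solute carrier genes thus lay near those of other genes of like level in both directions. The median log2 fold change was -0.19 for Ncoa6-sufficient and -0.14 for Ncoa6-KO BMDMs, beside -0.09 and -0.05 for genes with a mean of at least 100 counts. For 20 of the 172 genes the mean was below 100 counts with LPS + MSU and for 2 with medium alone, so these entered through 1 culture condition, and a gene that entered this way had to differ. Among these 22 genes 1 rose and 18 fell in Ncoa6-sufficient and 1 rose and 16 fell in Ncoa6-KO BMDMs, and they are part of every count by class that follows. Of the genes whose changes are given below, Slc26a11, Slc9a5, Slc46a3, Slc46a1, Slc37a1, Slc35g1, Slc7a4, Slc5a6 and Slc1a4 entered through medium alone. Slc15a2 entered through LPS + MSU. Among the 150 genes with a mean of at least 100 counts in both culture conditions, 50 rose and 61 fell in Ncoa6-sufficient and 49 rose and 55 fell in Ncoa6-KO BMDMs.

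Directions were relative to the scaling, because edgeR's TMM factors were 1.23 to 1.29 with medium alone and 0.766 to 0.829 with LPS + MSU. With library totals in their place, a choice made after the data were seen, the median of all genes shifted by -0.67 in Ncoa6-sufficient and by -0.63 in Ncoa6-KO BMDMs on the log2 scale, and 30 genes rose and 122 fell in Ncoa6-sufficient and 33 and 120 in Ncoa6-KO BMDMs. With DESeq2's size factors the median shifted by 0.11 and 0.06, and 58 rose and 73 fell in Ncoa6-sufficient and 56 and 68 in Ncoa6-KO BMDMs. Calls moved in the same way among the 10293 genes with a mean of at least 100 counts. There, library totals gave 1653 higher and 7407 lower in Ncoa6-sufficient and 1679 and 7210 in Ncoa6-KO BMDMs. DESeq2's size factors gave 3692 and 3612, and 3555 and 3514. Of the solute carrier genes called higher with TMM factors, 11 for Ncoa6-sufficient and 10 for Ncoa6-KO BMDMs had a negative value under library totals. None of those called lower had a positive one. Log2 fold changes below are those with TMM factors.

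The responses of the genotypes, which come from separate libraries, were alike in direction. Of the 51 and 50 genes that rose, 47 were the same genes, and of the 79 and 71 that fell, 71 were. Another 12 genes passed only in Ncoa6-sufficient and 3 only in Ncoa6-KO BMDMs, 39 passed in neither, and none passed in opposite directions. Over all genes tested, 9737 and 9359 passed in the 2 responses, and how many of these were the same was not counted. The shared calls are thus not shown to be particular to the solute carrier genes. The test of the difference, given at the end, called none of the 172 genes. Among the calls the groups never overlapped: each called gene had both libraries of one culture condition above both of the other. With 2 libraries in a group, such a separation largely follows from the call itself and is no further support for it.

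**Figure D2:**
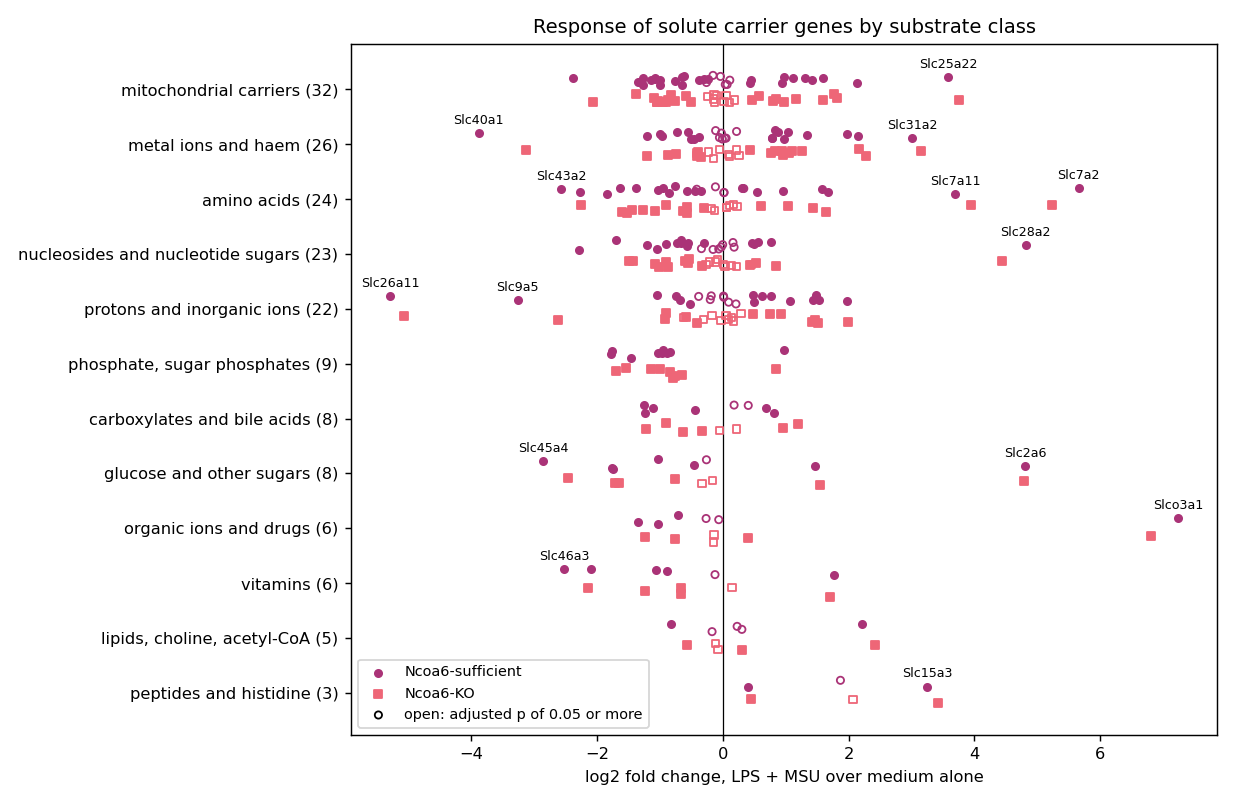
Log2 fold change with LPS + MSU over medium alone for each of the 172 genes, by substrate class with the number of genes in brackets, in Ncoa6-sufficient (circles) and Ncoa6-KO (squares) BMDMs, with open symbols for an adjusted p of 0.05 or more. Genes with a change above 2.5 in size in Ncoa6-sufficient BMDMs are named, and in the class of phosphate and sugar phosphate carriers 8 of 9 genes lie to the left of 0.

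Among the 24 amino acid transporters, 7 rose and 12 fell in Ncoa6-sufficient BMDMs and 6 rose and 11 fell in Ncoa6-KO BMDMs. Slc7a2, the cationic amino acid transporter (chr8:40862396-40922308, + strand), had normalized counts of 104 and 92.0 in medium alone and 5055 and 4872 after LPS + MSU in Ncoa6-sufficient BMDMs, and 115 and 84.3 and then 3976 and 3621 in Ncoa6-KO BMDMs. It rose 50.6-fold in Ncoa6-sufficient (log2 fold change 5.66 ± 0.15, adjusted p = 3.75e-10) and 37.6-fold in Ncoa6-KO BMDMs. The libraries of the culture conditions lay far apart for this gene, while those of the genotypes with medium alone overlapped. Slc7a11, the light chain of the cystine exchanger (chr3:49892526-50443614, - strand), went from 125 and 177 to 1567 and 2340.2 in Ncoa6-sufficient (log2 fold change 3.70 ± 0.35, adjusted p = 3.48e-06) and from 217 and 260.0 to 2345 and 4956 in Ncoa6-KO BMDMs. Its replicates differed more than those of most genes, with the higher Ncoa6-KO library with LPS + MSU at 2.11 times the lower, where the median ratio over the 172 genes was 1.13. Its heavy chain Slc3a2 rose less, from 12207 and 12614 to 24245 and 24168 in Ncoa6-sufficient BMDMs (log2 fold change 0.96 ± 0.10, adjusted p = 1.18e-05), and Slc7a8 rose 2.99-fold.

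Genes for the uptake of neutral amino acids were among those that fell. Slc38a2, a glutamine and alanine transporter known to be made when amino acids are short, went from 3572 and 4252 to 1416 and 1582 in Ncoa6-sufficient BMDMs (log2 fold change -1.38 ± 0.17, adjusted p = 4.07e-05). Slc1a5, another glutamine transporter, fell by 0.95 and by 0.90 on the log2 scale in Ncoa6-sufficient and Ncoa6-KO BMDMs. The largest fall in the class was that of Slc43a2, a carrier of branched-chain and other large neutral amino acids (chr11:75531694-75577575, + strand), from 16377 and 15110.0 to 2356 and 2938 in Ncoa6-sufficient BMDMs, 5.95-fold lower, and from 19417 and 15063 to 3280.1 and 3977 in Ncoa6-KO BMDMs. Slc7a4, an orphan relative of the cationic transporters, went from 139 and 170.3 to 23.6 and 39.9 in Ncoa6-sufficient BMDMs (log2 fold change -2.28 ± 0.30, adjusted p = 6.10e-05). Slc7a5, which carries large neutral amino acids together with Slc3a2, was at 1034 and 916 in medium alone and 1024 and 949 after LPS + MSU in Ncoa6-sufficient BMDMs and did not pass (adjusted p = 0.944).

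Slc7a11 is a known target of the factors ATF4 and NRF2, and its promoter is shown because it holds a pair of matches to the C/EBP-ATF response element, TGATGCAA, which ATF4 is known to bind. Promoter sequences, which reach from 250 bases before to 50 after a gene's start, were those of RefSeq on GRCm38.p6, and 128 of the 172 genes had one. The stretch of Slc7a11 from 250 bases before its start up to the start lies at chr3:50443614-50443863 on the - strand, and the capitals mark the matches on either strand, the first base of which lies 66 and 47 bases before the start.

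Slc7a11: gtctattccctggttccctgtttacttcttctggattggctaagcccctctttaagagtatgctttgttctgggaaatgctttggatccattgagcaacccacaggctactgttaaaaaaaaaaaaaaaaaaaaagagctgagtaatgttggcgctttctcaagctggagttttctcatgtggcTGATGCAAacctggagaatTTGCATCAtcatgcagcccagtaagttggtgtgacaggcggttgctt

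The motif stood in 0.895% of 32851 promoter windows of all genes, or those of 1.03% of 27025 genes, and in the windows of 4 of the 128 solute carrier genes (3.12%). The others were Slc7a7, Slc1a4 and Slc50a1, each printed as 48 bases with the match in capitals. They lie at chr14:54417918-54417965, chr11:20332690-20332737 and chr3:89270732-89270779, all on the - strand. These 3 genes are named because their windows hold the motif.

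Slc7a7: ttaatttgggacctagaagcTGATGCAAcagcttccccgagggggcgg
Slc1a4: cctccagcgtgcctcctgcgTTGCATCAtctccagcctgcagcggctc
Slc50a1: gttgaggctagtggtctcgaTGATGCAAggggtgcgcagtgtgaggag

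These 4 genes did not move together. Slc7a11 rose, and so did Slc7a7, an exporter of cationic amino acids, from 378 and 314 to 1144 and 1055 in Ncoa6-sufficient BMDMs (log2 fold change 1.67 ± 0.13, adjusted p = 7.01e-07). Slc1a4, a neutral amino acid exchanger, fell from 157 and 118 to 72.0 and 63.3 (log2 fold change -1.02 ± 0.33, adjusted p = 0.0208). Slc1a4 had a mean below 100 counts with LPS + MSU and had entered through its level with medium alone. Slc50a1, a sugar efflux transporter, was at 657 and 570.3 and then 507 and 519 and did not pass (adjusted p = 0.0694). Of other motifs searched on both strands, the NF-κB consensus stood in 15 of the 128 genes (11.7%, beside 9.55% of 27025 genes) and the E-box CACGTG in 22 (17.2%, beside 8.09%). A match is only a run of letters, and no binding was measured.

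Of the 8 genes of the sugar transporter families, 2 rose and 5 fell in Ncoa6-sufficient and 2 rose and 4 fell in Ncoa6-KO BMDMs. Slc2a6 (GLUT6, chr2:27021363-27027998, - strand) had normalized counts of 1077 and 1307 in medium alone and 33596 and 33145 after LPS + MSU in Ncoa6-sufficient BMDMs, and 1209.6 and 966 and then 33993 and 26055 in Ncoa6-KO BMDMs. It rose 28.0-fold (log2 fold change 4.81 ± 0.18, adjusted p = 3.12e-09) and 27.6-fold. Slc2a1 (GLUT1), the main glucose transporter of most cells, went from 1869.6 and 1789 to 5028 and 5093 in Ncoa6-sufficient BMDMs, 2.77-fold higher. The high-affinity glucose transporter Slc2a3 (GLUT3) moved the other way, from 549 and 512 to 168 and 149 in Ncoa6-sufficient BMDMs (log2 fold change -1.75 ± 0.13, adjusted p = 4.42e-07). The family thus held genes that rose and genes that fell. Slc45a4, a gene of the proton-coupled sugar transporter family, fell 7.26-fold, from 1488 and 1340.2 to 202 and 187, and Slc5a6 fell by 1.76 on the log2 scale.

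Among 8 genes of the monocarboxylate and bile acid transporter families, 2 rose and 4 fell in each genotype. Slc16a3 (MCT4), which exports lactate from glycolytic cells, rose from 2185 and 2004 to 3697 and 3647 in Ncoa6-sufficient BMDMs (log2 fold change 0.81 ± 0.12, adjusted p = 1.22e-04), a call that was lost under library totals (log2 fold change 0.14). Slc16a1 (MCT1), which carries lactate in either direction, had 533 and 501 in medium alone and 787 and 583 after LPS + MSU and did not pass (adjusted p = 0.083). Slc16a13 fell from 364 and 355 to 154 and 149 (log2 fold change -1.25 ± 0.12, adjusted p = 5.17e-06).

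Of 26 metal ion and haem transporters, 10 rose and 9 fell in Ncoa6-sufficient and 11 rose and 8 fell in Ncoa6-KO BMDMs. Iron transporters moved in both directions. Slc11a2 (DMT1), which imports ferrous iron across the plasma and endosomal membranes, went from 2771 and 2734 to 12801 and 11704 in Ncoa6-sufficient BMDMs (log2 fold change 2.15 ± 0.12, adjusted p = 4.07e-08). Slc40a1 (chr1:45908068-45926523, - strand) fell from 10106 and 9756 to 669 and 680.3, 14.7-fold lower in Ncoa6-sufficient BMDMs (log2 fold change -3.88 ± 0.17, adjusted p = 1.07e-08), and from 13261 and 10531 to 1138 and 1595, 8.71-fold lower in Ncoa6-KO BMDMs. The importer and the exporter of iron thus went opposite ways, and in each genotype the libraries of the culture conditions did not overlap for either. Slc11a1 was at 8406 and 8489 in medium alone and 8326 and 8965 after LPS + MSU in Ncoa6-sufficient BMDMs and did not pass (adjusted p = 0.803), and Slc48a1 fell by 0.73 on the log2 scale.

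Some copper and zinc transporters also rose. Slc31a2 (CTR2) went from 1668 and 1457 to 13240.0 and 11925 in Ncoa6-sufficient BMDMs, 8.05-fold higher (log2 fold change 3.01 ± 0.14, adjusted p = 1.17e-08). Of the 6 genes of the zinc exporter family Slc30, 4 rose and 1 fell in each genotype. Under library totals 2 rose and 2 fell in Ncoa6-sufficient and 3 rose and 2 fell in Ncoa6-KO BMDMs. Slc30a1, the zinc exporter of the plasma membrane, went from 1464 and 1286 to 5772 and 5064 in Ncoa6-sufficient (log2 fold change 1.98 ± 0.19, adjusted p = 3.64e-06) and from 1257 and 866 to 5984 and 4376 in Ncoa6-KO BMDMs. Of the 11 genes of the zinc importer family Slc39, 3 rose and 3 fell in Ncoa6-sufficient and 4 rose and 3 fell in Ncoa6-KO BMDMs. With library totals 0 rose and 8 fell in Ncoa6-sufficient and 2 rose and 6 fell in Ncoa6-KO BMDMs. Slc39a14 (ZIP14), which also carries iron and is known to be induced in inflammation, rose by 0.79 and by 0.82 on the log2 scale, Slc39a13 by 0.88 and by 1.26, and Slc39a1 by 0.98 and by 1.06 in Ncoa6-sufficient and Ncoa6-KO BMDMs. In Ncoa6-sufficient BMDMs the calls of these 3 zinc importers were lost under library totals, where their values were 0.11, 0.21 and 0.31, and in Ncoa6-KO BMDMs that of Slc39a14 was lost too (0.19). Slc39a10 fell, from 1178 and 1151 to 504 and 509.6 in Ncoa6-sufficient BMDMs (log2 fold change -1.20 ± 0.10, adjusted p = 1.68e-06).

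Of 32 mitochondrial carriers (family Slc25), 10 rose and 16 fell in Ncoa6-sufficient and 10 rose and 13 fell in Ncoa6-KO BMDMs. Slc25a22, a glutamate carrier of the inner membrane (chr7:141429744-141437892, - strand), went from 794 and 871 to 10079 and 9860.5 in Ncoa6-sufficient and from 606 and 666 to 8397 and 8679 in Ncoa6-KO BMDMs (log2 fold change 3.58 ± 0.11, adjusted p = 8.39e-10 in Ncoa6-sufficient and log2 fold change 3.75 ± 0.11, adjusted p = 5.96e-10 in Ncoa6-KO BMDMs). Slc25a12, the aspartate/glutamate carrier of the malate-aspartate shuttle, named after its values were seen, went from 1080.0 and 1072 to 5011 and 4484 in Ncoa6-sufficient BMDMs, while Slc25a13, the other gene for this carrier, went from 1181 and 1221 to 515 and 624. These paralogs rose 4.41-fold and fell 2.11-fold. The iron importers of mitochondria, Slc25a37 and Slc25a28 (mitoferrins), also named after their values were seen, rose by 1.59 and by 1.32 on the log2 scale.

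The main ADP/ATP carriers did not pass in either genotype. Slc25a5 was at 6718 and 6022 in medium alone and 6984 and 6386 after LPS + MSU in Ncoa6-sufficient BMDMs, and Slc25a4, the other main ADP/ATP carrier, at 3582 and 3379 against 3652 and 3506. Slc25a1, which exports citrate for lipid synthesis, went from 1333 and 1339 to 1797 and 1794 (log2 fold change 0.43 ± 0.09, adjusted p = 0.00128), but its direction turned under library totals (log2 fold change -0.24). The largest fall was that of Slc25a30, from 766 and 766 to 133 and 161 in Ncoa6-sufficient (log2 fold change -2.38 ± 0.14, adjusted p = 6.76e-08) and from 709.8 and 739 to 154 and 193 in Ncoa6-KO BMDMs.

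Among 23 genes of the nucleoside and nucleotide sugar families, 5 rose and 11 fell in Ncoa6-sufficient and 4 rose and 10 fell in Ncoa6-KO BMDMs. Slc28a2 (chr2:122426477-122461137, + strand), which takes up purine nucleosides with sodium, had normalized counts of 1710.3 and 1844 in medium alone and 50547 and 49817 after LPS + MSU in Ncoa6-sufficient BMDMs, and 1383 and 1179.8 and then 29976 and 25478 in Ncoa6-KO BMDMs. It rose 28.2-fold (log2 fold change 4.82 ± 0.14, adjusted p = 8.96e-10) and 21.6-fold. All 4 groups were apart from each other for this gene. Slc29a3, a nucleoside transporter of endolysosomes, was called higher in Ncoa6-sufficient BMDMs (log2 fold change 0.50 ± 0.19, adjusted p = 0.0407) but turned under library totals (-0.17). Without either Ncoa6-sufficient library with medium alone, or without the first with LPS + MSU, this call was lost as well, with values from 0.42 to 0.67 over the 8 libraries left out in turn. Family Slc35, which moves nucleotide sugars into the Golgi apparatus and endoplasmic reticulum, made up 20 of the 23 genes, of which 3 rose and 11 fell in Ncoa6-sufficient and 3 rose and 10 fell in Ncoa6-KO BMDMs. Slc35g1 fell most, from 178 and 174 to 26.3 and 45.4 in Ncoa6-sufficient BMDMs (log2 fold change -2.29 ± 0.23, adjusted p = 7.02e-06).

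Of the 3 peptide and histidine transporters, 2 rose and none fell. Slc15a3 (chr19:10839727-10859362, + strand) reached the highest level per kb of the 172 genes, with 8143 and 7242 in medium alone and 75102 and 71620.0 after LPS + MSU in Ncoa6-sufficient BMDMs and 4898 and 4633 and then 54619 and 47886 in Ncoa6-KO BMDMs. It rose 9.54-fold (log2 fold change 3.25 ± 0.13, adjusted p = 4.40e-09) and 10.8-fold. Slc15a4 rose by 0.41 and by 0.45 on the log2 scale, and these values turned under library totals (-0.26 and -0.18). Its call in Ncoa6-sufficient BMDMs was lost without the second library with medium alone, and that in Ncoa6-KO BMDMs without the second library with medium alone or the first with LPS + MSU, with values from 0.32 to 0.51 and from 0.32 to 0.60 when libraries were left out in turn.

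Slc15a2, a peptide transporter, stood apart by its replicates. Its normalized counts were 54.0 and 170.3 in Ncoa6-sufficient with medium alone, 3.48 and 61.5 in Ncoa6-KO with medium alone, 189.8 and 622 in Ncoa6-sufficient with LPS + MSU and 9.15 and 250.4 in Ncoa6-KO with LPS + MSU, in the order of the labels' numbers 1 and 2. In every group the library numbered 1 was the lower, by up to 27.4 times, and no comparison called the gene. The next most uneven gene of each group had ratios of 1.41 to 2.11, and the medians over the 172 genes were 1.08 to 1.13.

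Slco3a1, the only organic anion transporter of the Slco family among the 172 genes (chr7:74275419-74554780, - strand), had the largest change. Its normalized counts were 97.6 and 87.7 in medium alone and 15414 and 12680.0 after LPS + MSU in Ncoa6-sufficient BMDMs, and 103 and 112 and then 13508 and 10517 in Ncoa6-KO BMDMs. It rose 151-fold (log2 fold change 7.24 ± 0.19, adjusted p = 3.75e-10) and 112-fold. Of the 5 other genes of the organic ion class, all of family Slc22, 3 fell in Ncoa6-sufficient BMDMs, and in Ncoa6-KO BMDMs 1 rose and 2 fell. Of the 3, Slc22a15 and Slc22a21 had a mean below 100 counts with LPS + MSU and had entered through their level with medium alone. Among 5 transporters of lipids, choline and acetyl-CoA, Slc44a1, which imports choline, went from 2532 and 2314 to 11793 and 10669 in Ncoa6-sufficient BMDMs (log2 fold change 2.21 ± 0.12, adjusted p = 4.86e-08), and Slc27a1 fell from 9800.4 and 10124 to 5578 and 5681.

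Of 6 vitamin transporters, 1 rose and 4 fell in each genotype. The gene that rose was Slc23a2, an ascorbate transporter, named after its values were seen, from 5067 and 4833 to 17516 and 16132 in Ncoa6-sufficient BMDMs (log2 fold change 1.76 ± 0.13, adjusted p = 4.12e-07). Slc19a2, a thiamine transporter (chr1:164249046-164265385, + strand), fell from 491 and 475 to 108 and 117 in Ncoa6-sufficient (log2 fold change -2.10 ± 0.19, adjusted p = 2.18e-06) and from 638 and 726 to 233 and 349.8 in Ncoa6-KO BMDMs. Slc46a1, the proton-coupled folate transporter, fell by 1.06 and by 0.66, and its lysosomal relative Slc46a3 by 2.52 and by 2.14 on the log2 scale.

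In the class of phosphate, sugar phosphate and vesicular or lysosomal anion carriers all 9 genes passed in each genotype, 1 higher and 8 lower, which held with TMM factors and with DESeq2's size factors. Under library totals the 8 genes were lower as well and the ninth was not called. Of the 8 that fell, Slc37a1, Slc17a9 and Slc18b1 had a mean below 100 counts with LPS + MSU and thus had entered through their level with medium alone. Slc37a2 went from 12547 and 10636 to 3589.6 and 3289 in Ncoa6-sufficient BMDMs (log2 fold change -1.75 ± 0.12, adjusted p = 2.05e-07), and Slc37a1, its paralog, fell by 1.77 on the log2 scale. Slc20a1, a sodium-phosphate importer, went from 3466 and 3533 to 1562 and 1869. The gene that rose was Slc37a3, named after its values were seen, from 601 and 527 to 1180.4 and 1034. In this class 6 genes, Slc37a3 among them, had a mean of at least 100 counts in both culture conditions. Their median was -0.92 for Ncoa6-sufficient and -0.78 for Ncoa6-KO BMDMs. Beside this, it was -0.09 and -0.05 for all genes with a mean of at least 100 counts. With so few genes in a class, these medians are a description.

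Of 22 transporters of protons and inorganic ions, 9 rose and 6 fell in Ncoa6-sufficient and 7 rose and 6 fell in Ncoa6-KO BMDMs. Slc4a7, a sodium bicarbonate cotransporter known for keeping the pH of phagocytosing macrophages, went from 1246 and 1394 to 5269 and 5124 in Ncoa6-sufficient BMDMs (log2 fold change 1.98 ± 0.09, adjusted p = 1.52e-08). Of the 5 cation-chloride cotransporters (family Slc12), 4 rose in Ncoa6-sufficient BMDMs, 3 rose in Ncoa6-KO BMDMs, and none fell in either, whereas under library totals 3 rose and 1 fell in Ncoa6-sufficient and 2 rose and 2 fell in Ncoa6-KO BMDMs. The largest fall of all 172 genes was that of Slc26a11, a lysosomal and plasma membrane anion transporter (chr11:119355557-119381079, + strand), from 1149.8 and 1284 to 34.6 and 27.5 in Ncoa6-sufficient (log2 fold change -5.29 ± 0.23, adjusted p = 1.03e-08) and from 1681 and 1187 to 49.7 and 35.0 in Ncoa6-KO BMDMs. It was 39.0-fold and 33.7-fold lower, and its highest library with LPS + MSU lay far below its lowest with medium alone. Slc9a5, a sodium-proton exchanger, fell from 226 and 307 to 30.5 and 24.8 in Ncoa6-sufficient BMDMs (log2 fold change -3.26 ± 0.25, adjusted p = 6.99e-07). Both Slc26a11 and Slc9a5 had a mean below 100 counts with LPS + MSU and had entered through their level with medium alone.

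**Figure D3:**
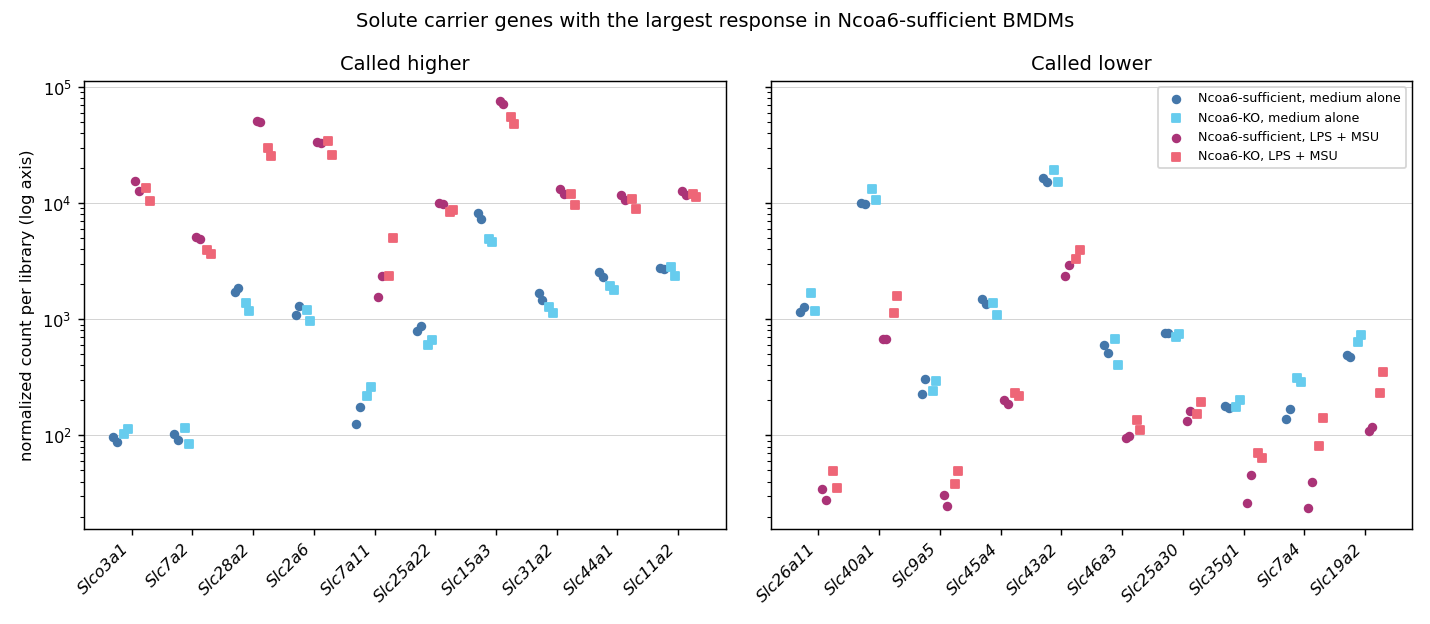
Normalized count in each library, on a log axis, of the 10 genes called higher and the 10 called lower with the largest log2 fold change in Ncoa6-sufficient BMDMs. Of those called lower, Slc26a11, Slc9a5, Slc46a3, Slc35g1 and Slc7a4 had a mean below 100 counts with LPS + MSU. Each gene has 8 points, 2 for each group, and the 4 libraries with LPS + MSU lie on one side of the 4 with medium alone for each gene but Slc7a4, of which the higher Ncoa6-KO library with LPS + MSU (139.9) lies next to the lower Ncoa6-sufficient library with medium alone (139).

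Solute carrier families whose genes bear other symbols were read from a separate list of 39 measured genes, of which 32 entered the test. Of these, 9 rose and 14 fell in Ncoa6-sufficient and 7 rose and 13 fell in Ncoa6-KO BMDMs. Of all genes tested, 24.7% rose and 30.5% fell in Ncoa6-sufficient and 25.2% and 27.9% in Ncoa6-KO BMDMs. Among genes with a mean of at least 100 counts the shares were 30.8% and 40.1%, and 31.8% and 36.9%. Flvcr1, a haem and choline transporter, went from 3223 and 3393 to 658 and 618 in Ncoa6-sufficient BMDMs, Ctns, the lysosomal cystine exporter, from 1466 and 1547 to 454 and 534, and Mpc1, a subunit of the mitochondrial pyruvate carrier, from 1233 and 1151 to 1933 and 1822. These 3 genes were named after their values were seen.

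The next comparison asked what the loss of Ncoa6 did to the 172 genes with medium alone. Few passed: 1 gene was higher (0.581%) and 2 were lower (1.16%) in Ncoa6-KO BMDMs, beside 0.573% and 1.30% of all genes tested and 0.748% and 2.14% of genes with a mean of at least 100 counts. The gene that was higher was Slc2a3 (chr6:122727809-122801640, - strand), with normalized counts of 549 and 512 in the Ncoa6-sufficient and 827 and 771 in the Ncoa6-KO libraries (log2 fold change 0.59 ± 0.11, adjusted p = 0.0251). Slc15a3 was lower, at 8143 and 7242 in Ncoa6-sufficient against 4898 and 4633 in Ncoa6-KO BMDMs (log2 fold change -0.69 ± 0.12, adjusted p = 0.0209). Slc16a3 (chr11:120948480-120960868, + strand) was lower as well, at 2185 and 2004 against 1279 and 1464 (log2 fold change -0.61 ± 0.12, adjusted p = 0.0298). For each of the 3 genes both Ncoa6-KO libraries lay on one side of both Ncoa6-sufficient libraries, and the change was under 2-fold.

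Each of these calls was lost in some of the fits with a library left out, while the log2 fold changes kept their direction. Without either Ncoa6-sufficient library with medium alone no gene passed in either direction, and the same held without the second Ncoa6-KO library with medium alone, while without the first the calls of Slc2a3 and Slc16a3 were lost and Slc15a3 was still called. Without either Ncoa6-sufficient library with LPS + MSU, 1 gene was lower, and without either Ncoa6-KO library with LPS + MSU, 2 were higher. The log2 fold changes stayed between 0.54 and 0.64 for Slc2a3, -0.77 and -0.60 for Slc15a3 and -0.71 and -0.52 for Slc16a3. DESeq2 called 2 genes higher and 6 lower, beside 138 and 358 of all 17625 genes tested.

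With LPS + MSU, 10 of the 172 genes (5.81%) were higher and 2 (1.16%) were lower in Ncoa6-KO BMDMs, beside 1.96% and 1.63% of all genes tested and 2.95% and 2.63% of genes with a mean of at least 100 counts. With DESeq2's size factors in edgeR the split was 9 higher and 4 lower, beside 295 and 343 of all 17625 genes tested. This comparison shares the Ncoa6-sufficient libraries with LPS + MSU with the response above, so the values of both are set side by side without a test of their relation. Where pairs of values are set against each other, those of the Ncoa6-sufficient libraries come first.

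Among amino acid transporters 3 of 24 were higher in Ncoa6-KO BMDMs with LPS + MSU. Slc7a4 (chr16:17572018-17583214, - strand) had normalized counts of 23.6 and 39.9 in Ncoa6-sufficient against 81.0 and 139.9 in Ncoa6-KO BMDMs, 3.45-fold higher (log2 fold change 1.79 ± 0.32, adjusted p = 0.0154). With medium alone it was at 139 and 170.3 against 314 and 286 and did not pass (adjusted p = 0.0633). Slc38a6, named as a glutamine transporter, was at 712 and 931 against 1281 and 1245 (log2 fold change 0.62 ± 0.13, adjusted p = 0.0284), and Slc6a8, the creatine transporter, at 3314 and 3339.6 against 4222 and 4837 (log2 fold change 0.45 ± 0.10, adjusted p = 0.0343). In the response of Ncoa6-sufficient BMDMs these 3 genes had changed by -2.28, -0.45 and -0.85 on the log2 scale. The response of Slc38a6 was lost without the second Ncoa6-sufficient library with medium alone or the first with LPS + MSU, with values from -0.61 to -0.22.

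Among metal ion and haem transporters 3 of 26 were higher. The level of Slc40a1 was 669 and 680.3 in Ncoa6-sufficient against 1138 and 1595 in Ncoa6-KO BMDMs, 2.02-fold higher (log2 fold change 1.02 ± 0.16, adjusted p = 0.0103), after the responses of -3.88 and -3.12 within these genotypes. In medium alone its counts were at 10106 and 9756 against 13261 and 10531 and did not pass (adjusted p = 0.538). Slc48a1 (chr15:97778520-97792692, + strand), another gene of iron handling, was at 4216 and 4235 against 5515 and 7075 (log2 fold change 0.58 ± 0.12, adjusted p = 0.0296), and Slc39a10, a zinc importer, at 504 and 509.6 against 644 and 756 (log2 fold change 0.46 ± 0.11, adjusted p = 0.038). In the response of Ncoa6-sufficient BMDMs the latter pair had changed by -0.73 and -1.20. Slc11a1, Slc11a2 and Slc39a14 did not pass, with log2 fold changes of 0.06, -0.08 and -0.14 between genotypes.

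Single genes of other classes were higher as well. Slc19a2 was at 108 and 117 in Ncoa6-sufficient against 233 and 349.8 in Ncoa6-KO BMDMs, 2.58-fold higher (log2 fold change 1.37 ± 0.19, adjusted p = 0.0059). Slc2a3 was at 168 and 149 against 226 and 260.2 (log2 fold change 0.62 ± 0.14, adjusted p = 0.0342), and was the only gene higher in both knockout comparisons. Slc16a13 (chr11:70216789-70221064, - strand) was at 154 and 149 against 230.0 and 232 (log2 fold change 0.61 ± 0.13, adjusted p = 0.0296), but at 364 and 355 against 369 and 350.4 with medium alone, where the genotypes overlapped. Slc25a1 was at 1797 and 1794 against 2362 and 2229 (log2 fold change 0.35 ± 0.09, adjusted p = 0.0485).

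Both genes that were lower in Ncoa6-KO BMDMs with LPS + MSU stood at the top by level per kb in Ncoa6-sufficient BMDMs with LPS + MSU. Slc28a2 was at 50547 and 49817 in Ncoa6-sufficient against 29976 and 25478 in Ncoa6-KO BMDMs, 1.81-fold lower (log2 fold change -0.86 ± 0.12, adjusted p = 0.00596). With medium alone it was at 1710.3 and 1844 against 1383 and 1179.8 and did not pass (adjusted p = 0.0972). Slc15a3 was at 75102 and 71620.0 against 54619 and 47886 (log2 fold change -0.52 ± 0.12, adjusted p = 0.0399), and was lower in both knockout comparisons. Slc16a3, lower with medium alone, was at 3697 and 3647 against 2798 and 3489.7 with LPS + MSU and did not pass (adjusted p = 0.366). The other strongly induced genes Slco3a1, Slc7a2, Slc2a6, Slc7a11, Slc25a22 and Slc31a2 did not pass. Their log2 fold changes between genotypes were -0.23, -0.39, -0.15, 0.90, -0.22 and -0.23, so that Slc7a11 had the opposite sign of the others. Reads of Slc28a2, Slc15a3 and Slc16a3 were in part shared with other genes, since their expected counts were not whole numbers in some library.

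**Figure D4:**
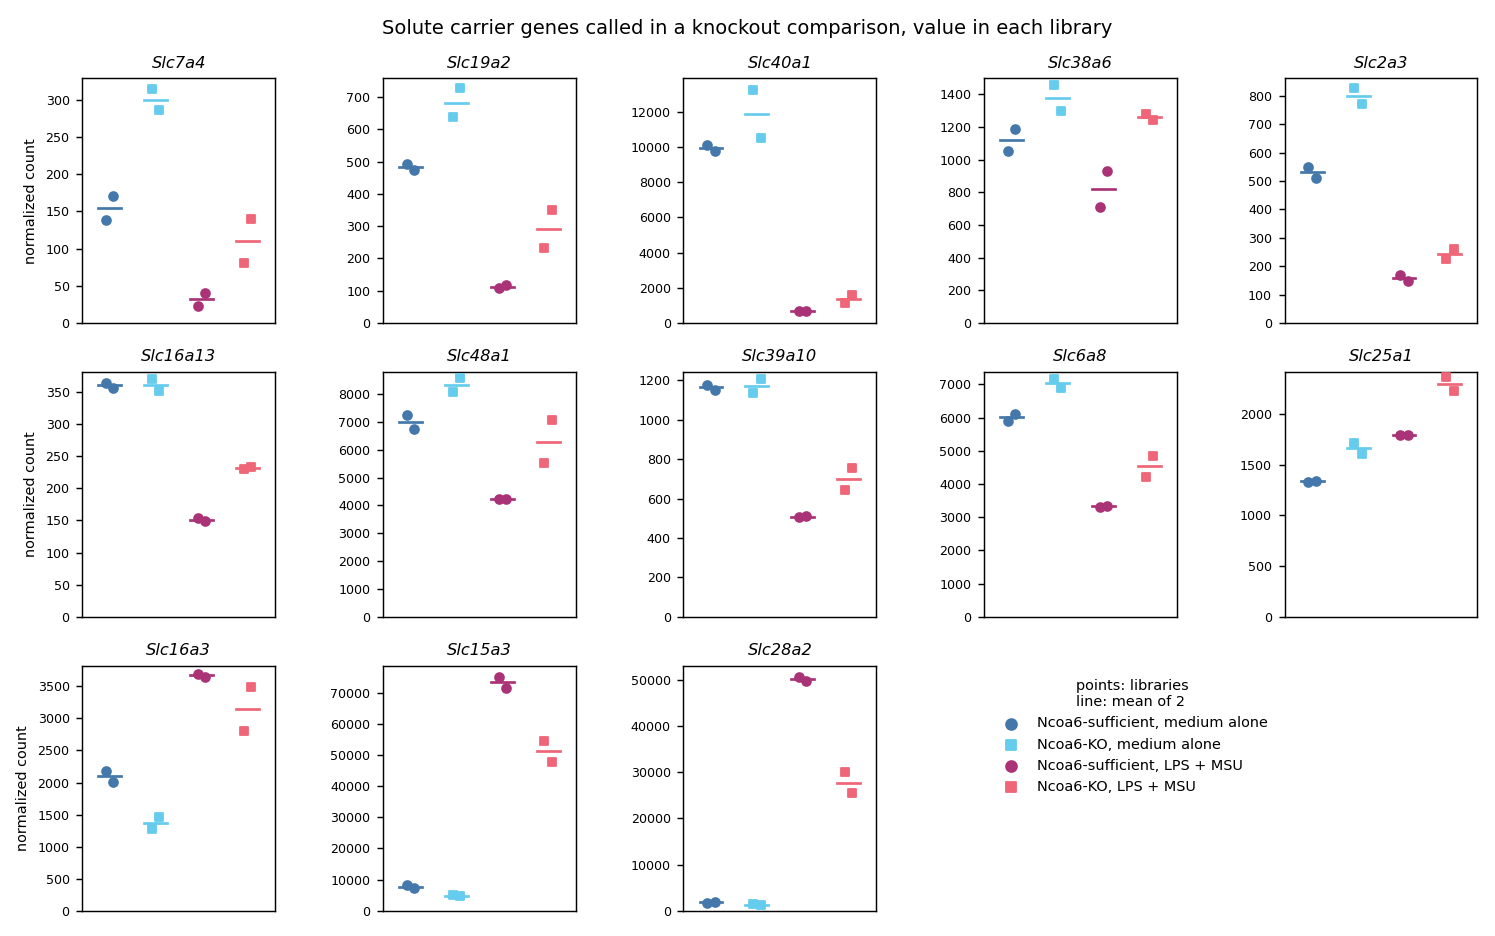
Normalized count in each library, on linear axes from 0, of the 13 genes called in a knockout comparison, with a line at the mean of the 2 libraries of a group. For Slc28a2 and Slc15a3 both Ncoa6-KO libraries with LPS + MSU lie below both Ncoa6-sufficient ones, and for Slc40a1, Slc19a2 and Slc7a4 above.

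The number of calls with LPS + MSU moved with single libraries. Without the first Ncoa6-sufficient library with LPS + MSU none of the 172 genes passed, and without the second Ncoa6-KO library only Slc19a2 did. Without the second Ncoa6-sufficient library with LPS + MSU 4 were higher and 2 lower, without either Ncoa6-sufficient library with medium alone 3 were higher and 1 lower, without the first Ncoa6-KO library with LPS + MSU 7 were higher and 3 lower, and without either Ncoa6-KO library with medium alone 11 were higher and 4 lower. The directions of the 12 calls did not change: over the 8 libraries left out in turn, Slc7a4 stayed between 1.34 and 2.21, Slc19a2 between 1.04 and 1.62, Slc40a1 between 0.75 and 1.22 and Slc15a3 between -0.63 and -0.43. DESeq2 called 6 genes higher and 7 lower, beside 346 and 503 of all 17625 genes tested. A fit of only the 4 libraries compared called 2 and 1. The gene lists of neutrophil, erythroid, B cell, stromal and dendritic cell markers held no gene called between genotypes with LPS + MSU, and of the macrophage markers Lyz2 and Itgam were lower and of the endothelial markers Vwf was higher in Ncoa6-KO BMDMs. The part of these in the results was not tested.

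**Figure D5:**
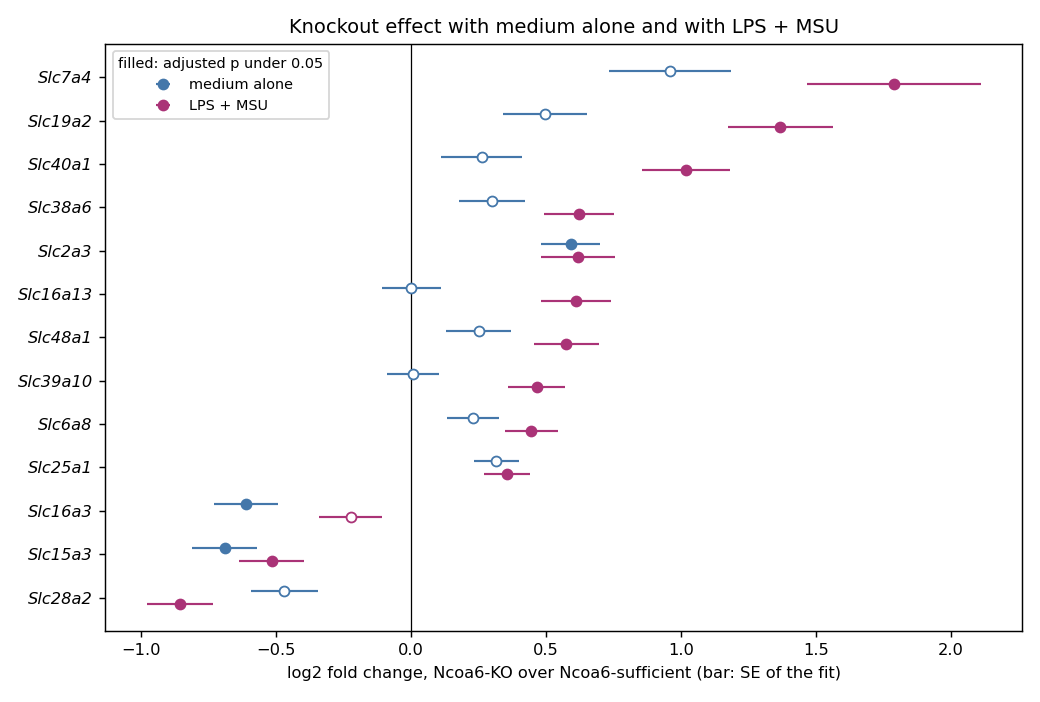
Log2 fold change of Ncoa6-KO over Ncoa6-sufficient BMDMs with medium alone and with LPS + MSU for the 13 genes called in either comparison, with the standard error of the fit as bars and filled points for an adjusted p under 0.05. Slc2a3 and Slc15a3 are filled in both conditions, and Slc16a3 is filled with medium alone.

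The last comparison asked whether the knockout effect differed between culture conditions. No gene of the 172 passed, and 0% of all genes tested and 0% of those with a mean of at least 100 counts did in edgeR. At an unadjusted p under 0.05 in edgeR there were 11 of the 172 genes. Beside these were 1045 of the 17625 genes tested and 761 of the 10293 with a mean of at least 100 counts. DESeq2 called none of the 172, and 32 higher and 11 lower among all genes tested. Without a filter on low counts edgeR called 2, Slc40a1 and Slc19a2. That fit called 195 of all 24645 genes higher and 74 lower, so such calls were not particular to the 172 genes. The smallest p-values were those of Slc16a13, Slc19a2, Slc40a1, Slc39a10 and Slc39a13, with differences of 0.61 ± 0.17, 0.87 ± 0.25, 0.76 ± 0.22, 0.46 ± 0.14 and 0.38 ± 0.13 (SE) on the log2 scale and adjusted p of 0.536 to 0.721. A knockout effect that passed under one culture condition and not under the other, as for Slc28a2 or Slc16a3, was thus not shown to differ between them, and for Slc40a1 and Slc19a2 a difference was called only without the filter.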

How the data were processed

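Per the submitters' processing notes and the study's methods, the authors made stranded mRNA libraries, aligned read pairs with STAR 2.7.3a and estimated counts per gene with RSEM 1.3.3 on GRCm38. The deposited values are RSEM expected counts per gene, not normalized, for 8 libraries. RSEM divides reads that fit several genes, and 46 of the 172 genes had counts that were not whole. Exons of 8 overlap another gene on the same strand, which can split their reads. The counts were rounded, and genes with a sum below 10 were left out. Models of all 4 groups together, which left 4 residual degrees of freedom, were fitted by quasi-likelihood in edgeR 4.0.16 (R 4.3.3) after TMM scaling. The p-values were adjusted by the Benjamini-Hochberg method over the 17625 genes tested. Errors of fold changes are standard errors (SE) of the fit. Every group had 2 libraries, from different mice, and p-values of single genes come only from this fit. Positions and exon lengths, taken as the union of a gene's exons, came from GENCODE vM21 on GRCm38.

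Genes named in the text were, for each response, the 10 called higher and the 10 called lower with the largest change and no overlap of groups, every gene called in a knockout comparison, the 5 with the smallest interaction p-value, a fixed list of 26, the 10 with the highest level per kb and the 3 on each side of the limit of 100 counts. Members, lists and this rule were chosen with earlier results of these data known, and some named items are not reported here. Alternatives were DESeq2 1.42.0, its size factors in edgeR, filterByExpr, no filter, limma-voom (limma 3.58.1) without rounding, a replicate block, only the libraries compared, each library left out in turn, limits of 50 and 200 counts and library totals, the last chosen after seeing the data. The code was tested on simulated data.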

Additional observations from a re-analysis of the deposited data

How the results depend on the processing

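With 2 libraries a group, the counts of calls in the knockout comparisons depended on the fit, and the cause of the differences between fits was not tested. The numbers of genes higher and lower in Ncoa6-KO were 1 and 2 for medium alone, and 10 and 2 for LPS + MSU. They were 8 and 13, and 21 and 14, without a filter on low counts, 2 and 6, and 6 and 7, with DESeq2, 2 and 2, and 6 and 2, with limma-voom, 1 and 2, and 9 and 4, with DESeq2's size factors, 2 and 2, and 2 and 1, with only the libraries compared, and 2 and 2, and 11 and 2, with a limit of 50 counts. Calls over all genes moved too. Without a filter they were 1.59% higher and 3.09% lower for medium alone, and 3.27% and 3.26% for LPS + MSU. With DESeq2, 138 of the 17625 genes were higher and 358 lower for medium alone, and 346 and 503 for LPS + MSU. With DESeq2's size factors these were 104 and 192, and 295 and 343. Calls over all genes are not given here for limma-voom, only the libraries compared or a library left out. Without a filter the interaction called 2 genes, Slc40a1 and Slc19a2. Leaving out each library gave 0 to 2 higher and 0 to 2 lower with medium alone, 0 to 11 higher and 0 to 4 lower with LPS + MSU, 47 to 55 higher and 68 to 80 lower for the response in Ncoa6-sufficient, 47 to 52 higher and 64 to 71 lower for that in Ncoa6-KO, and 0 genes for the interaction. In these fits, with 3 residual degrees of freedom, the lone library of a group is assumed to vary like the others. Depth, at 25281955 counts in the smallest library, limits most the genes of few counts, such as Slc7a4 with 23.6 normalized counts in its lowest library.

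Libraries bear the numbers 1 and 2 in every group, and the labels do not say that a number marks a shared mouse. The deviations of same-numbered libraries correlated at 0.21 to 0.36 across genes. With a replicate block the numbers in the knockout comparisons were 8 and 14 for medium alone, and 19 and 13 for LPS + MSU, beside 1.88% and 3.93%, and 4.26% and 4.44%, of all genes tested, and those of the responses were 57 and 81 in Ncoa6-sufficient and 53 and 74 in Ncoa6-KO.

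Library totals gave 30 genes higher and 122 lower for the response in Ncoa6-sufficient and 33 and 120 in Ncoa6-KO. Of the 10293 genes with a mean of at least 100 counts they gave 1653 and 7407, and 1679 and 7210. Library totals turned the direction of Slc25a1, Slc15a4 and Slc29a3 in Ncoa6-sufficient BMDMs, to -0.24, -0.26 and -0.17. They also turned Slc25a1 and Slc15a4 in Ncoa6-KO BMDMs, to -0.17 and -0.18. The other called genes that the rule named kept their direction, in the comparisons that called them, under every alternative run. Genes that were not called in a response, such as Slc25a5, could turn under library totals.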

Other observations

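The 86 Slc and Slco genes that were tested with a mean below 100 counts were called in the response to LPS + MSU as follows: 17 rose and 16 fell in Ncoa6-sufficient and 15 and 15 in Ncoa6-KO BMDMs. In Ncoa6-sufficient BMDMs these are 19.8% and 18.6%, beside 24.7% and 30.5% of all genes tested. Genes named here were chosen after their values were seen. Slc6a4, the serotonin transporter, had normalized counts of 0.751 and 0 in medium alone and 224 and 202 after LPS + MSU in Ncoa6-sufficient BMDMs, and 1.39 and 0.878 and then 219.6 and 218 in Ncoa6-KO BMDMs. Slc6a19, a neutral amino acid transporter known from kidney and gut, went from 23.3 and 18.9 to 181 and 176 and Slc4a11, a gene of the bicarbonate transporter family, from 6.00 and 8.60 to 165 and 107 in Ncoa6-sufficient BMDMs. All of these 3 genes had every library with LPS + MSU above every library with medium alone. Slco2b1, an organic anion transporter, went the other way, from 126 and 90.1 to 9.70 and 1.38.

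Slc9b2, a sodium-proton exchanger whose mean lay just below the limit of 100 counts, was higher in Ncoa6-KO BMDMs in both comparisons. It had 72.8 and 65.4 in Ncoa6-sufficient against 138 and 174 in Ncoa6-KO libraries with medium alone (log2 fold change 1.17 ± 0.23, adjusted p = 0.0358), and 49.9 and 30.3 against 92.8 and 126 with LPS + MSU (log2 fold change 1.44 ± 0.28, adjusted p = 0.0214). Slc13a3, a dicarboxylate transporter, with medium alone was lower after loss of Ncoa6, at 33.0 and 20.6 against 5.56 and 2.63 (log2 fold change -2.64 ± 0.53, adjusted p = 0.0355).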
